A study of Boehmeria nivea with 6 samples.

Results

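The genes described here were high in both above-ground organs of ramie and low in its root. Ramie (Boehmeria nivea) is a perennial crop grown for the bast fibres of its stem. Leaf, stem and root of 30-day-old plants were sequenced from the wild tenacissima accession QYZM and from the cultivar ZSZ1, with 1 library for each organ of each variety and 6 in all. The labels name no treatment, and nothing says how many plants entered a library. Members were selected on the measured FPKM (fragments per kilobase of gene, also scaled to the size of the library), with 1 added to each value. In QYZM and also in ZSZ1, leaf and stem each had to be at least 4 times root, and leaf and stem had to be less than 4-fold apart. This gave 38 of 20693 genes. All tissue ratios below describe the values that chose the genes and carry no test.

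Leaf and stem both grow from the shoot apical meristem, whereas roots grow from a meristem of their own. Young green stems share with leaves the photosynthetic tissue, the stomata and the cuticle-covered epidermis that roots lack, and genes of these tissues are well known examples of shoot expression in plants. Stems share with roots the thickened water-conducting and supporting tissue.

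Gene names are not paired with the identifiers in the table, so neither the functions of the 38 genes nor the organ labels could be checked against known markers. Genes are therefore given by identifier. FPKM are scaled for gene length and are relative, so a few very abundant genes lower all others of a library. The summed FPKM of a library was lowest in ZSZ1 leaf (306497) and highest in QYZM leaf (433435). In whole organs, fewer cells that express a gene and less RNA in each such cell cannot be told apart.

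By rank among all genes, the 38 genes lay in the upper part of the leaf and stem libraries and near the middle of the root libraries. In leaf they ranged from 4.31 to 439 FPKM in QYZM with a median of 64.2, and from 6.79 to 486 FPKM in ZSZ1 with a median of 32.4. In stem they ranged from 5.94 to 382 FPKM in QYZM (median 26.5) and from 3.12 to 645 FPKM in ZSZ1 (median 30.8). In root the medians were 3.36 FPKM in QYZM and 1.67 FPKM in ZSZ1. The median member stood at percentile 94.8 of all genes in QYZM leaf and 92.2 in ZSZ1 leaf, at 84.1 and 86.9 in the stems, and at 44.5 and 40.6 in the roots. Low in root thus meant a middling rank among all genes for many of them. Genes that reached 1 FPKM in 2 or more libraries had higher root medians, 9.64 FPKM in QYZM and 8.53 FPKM in ZSZ1. In root, 22 members reached 1 FPKM in both varieties, 8 did so in neither, and 8 did so in QYZM but not in ZSZ1.

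Together the members were a small share of each library. Of the summed FPKM they took up 0.844% in QYZM leaf, 0.933% in ZSZ1 leaf, 0.573% in QYZM stem and 0.794% in ZSZ1 stem. In the roots they held 0.0634% in QYZM and 0.0502% in ZSZ1.

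**Figure D1:**
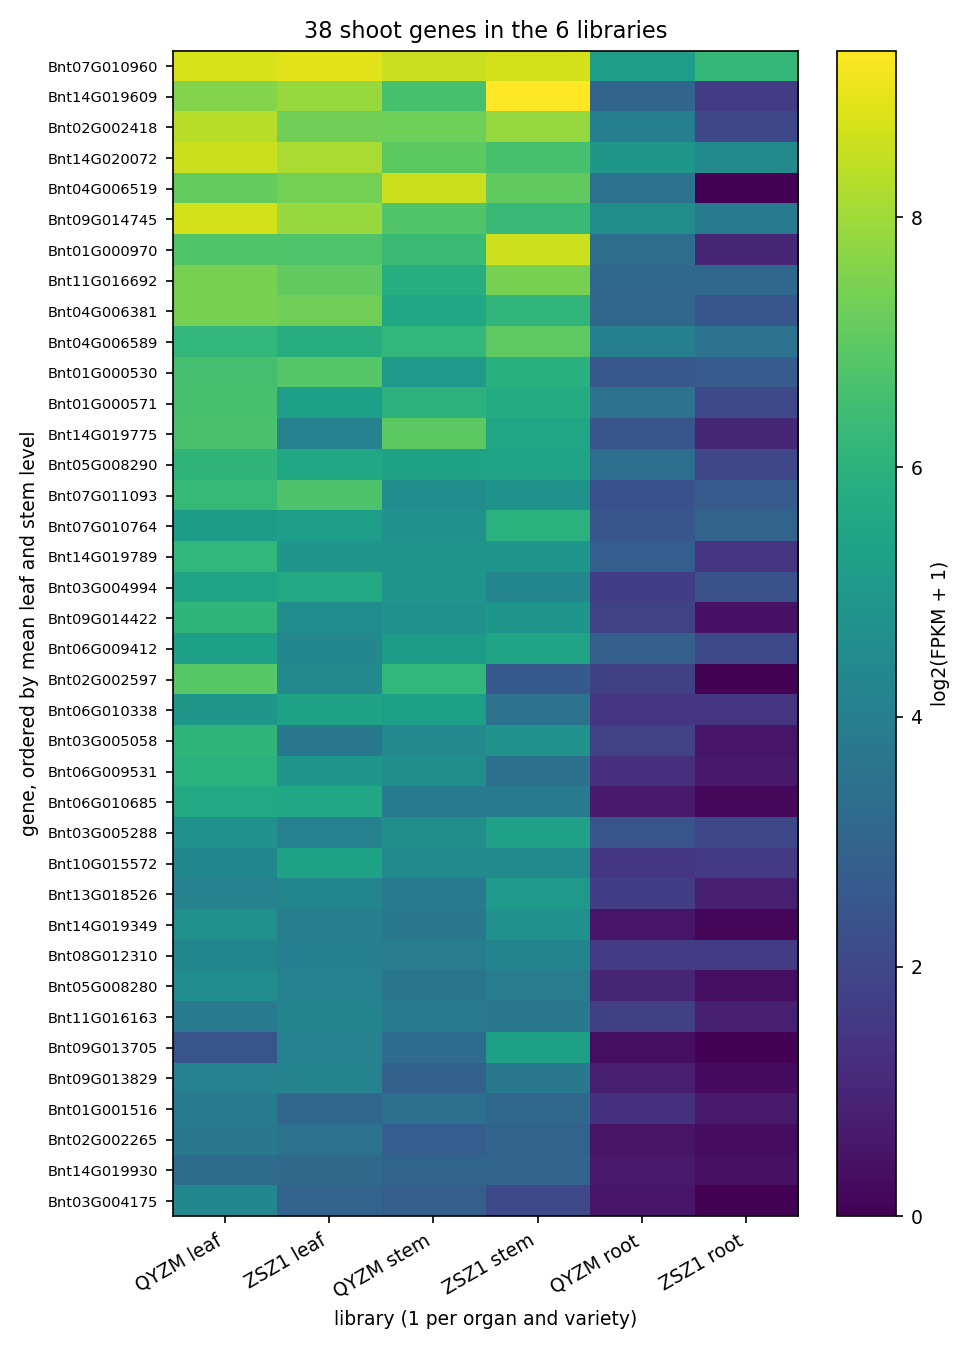
Level of each of the 38 genes (rows, ordered by mean leaf and stem level) in each of the 6 libraries (columns), as log2(FPKM + 1) on a colour scale. Within each row, root is darker than the leaf and stem of the same variety, and rows lower down are darker in leaf and stem too. Bnt07G010960 at the top keeps the highest root values, 36.5 and 73.4 FPKM.

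The member with the highest mean level was Bnt07G010960. It stood at 439 FPKM in leaf, 376 FPKM in stem and 36.5 FPKM in root of QYZM, and at 486, 429 and 73.4 FPKM in leaf, stem and root of ZSZ1. Its 4 leaf and stem values lay close together and well above both roots, although its root values were the highest among the members. Bnt14G019609 came next, with 196 FPKM in leaf, 96.7 FPKM in stem and 7.33 FPKM in root of QYZM, and 239, 645 and 2.17 FPKM in leaf, stem and root of ZSZ1. Its ZSZ1 stem value was the highest of any member in any library.

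At the low end, Bnt14G019930 stood at 8.93 FPKM in leaf, 7.06 FPKM in stem and 0.600 FPKM in root of QYZM, and at 8.37, 7.23 and 0.328 FPKM in leaf, stem and root of ZSZ1. Its leaf and stem levels were nearly the same in both varieties. Bnt03G004175, the lowest by mean level, had 19.8 FPKM in leaf, 6.07 FPKM in stem and 0.472 FPKM in root of QYZM, and 6.79, 3.12 and 0.0190 FPKM in leaf, stem and root of ZSZ1. The filter on low values used for the variety test was passed by 38 of the 38 members, which the rule ensures, since 4 times a root value of (FPKM + 1) is at least 3 FPKM.

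The distance to root differed between organs and varieties. Root was a median 5.71% of the leaf value and 11.2% of the stem value in QYZM, and 4.30% and 5.61% in ZSZ1. On the log2(FPKM + 1) scale the median leaf minus root difference was 3.57 in QYZM and 3.76 in ZSZ1, and the median stem minus root difference was 2.51 in QYZM and 3.43 in ZSZ1. Over all 14941 tested genes these medians were -0.38 and -0.72 for leaf and 0.01 and 0.01 for stem. Stem over root in QYZM was thus the smallest of the 4 median differences among the members.

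The widest separation from root, taken as the smallest of the 4 ratios of leaf or stem to root, was found in Bnt04G006519. It stood at 140 FPKM in leaf, 382 FPKM in stem and 10.6 FPKM in root of QYZM, and at 168 FPKM in leaf and 132 FPKM in stem of ZSZ1 with a listed 0 in ZSZ1 root. It was the only member listed at 0 in any library, and its smallest ratio of (FPKM + 1) was 12.2, in QYZM leaf. Bnt14G019609 followed at 11.7. Requiring 8-fold in place of 4-fold left 7 genes.

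Most members lay nearer the threshold. Just inside were Bnt05G008290, with a smallest ratio of 4.01 (40.9 FPKM in QYZM stem against 9.46 FPKM in QYZM root), and Bnt03G004175, with 4.04 (3.12 FPKM in ZSZ1 stem against 0.0190 FPKM in ZSZ1 root). Just outside were Bnt07G012063, at 3.98 in ZSZ1 leaf (4.02 FPKM against 0.261 FPKM in ZSZ1 root), and Bnt07G012049, at 3.97 in QYZM leaf (6.64 FPKM against 0.925 FPKM in QYZM root). With 1 library each, no error can be put on these ratios, and genes on either side of the threshold had nearly equal values. For the limit between leaf and stem, the largest ratio among members was 3.96 and the smallest among genes past the limit was 4.06. Without that limit 119 genes were at least 4-fold over root in leaf and stem of both varieties. Of the 81 excluded by it, 77 had leaf at least 4-fold above stem in 1 or both varieties and 4 had stem at least 4-fold above leaf.

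The rule was met far more often in the cultivar than in the wild accession. Taken alone, QYZM gave 88 genes (0.425% of all genes) and ZSZ1 gave 265 (1.28%). The 38 shared genes were 43.2% of the QYZM list and 14.3% of the ZSZ1 list. The libraries of one variety played no part in making the list of the other, so these shares describe libraries not used in the choice. This does not hold for the genes of 1 list alone, read next. They were also chosen for missing the rule in the other variety.

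Stem against root in QYZM was where most ZSZ1 genes fell short. Of the 227 genes that met the rule in ZSZ1 alone, 189 were short of 4-fold for stem over root in QYZM and 108 were short for leaf over root. The 2 groups share 97 genes. A further 27 met both root conditions in QYZM but had leaf and stem at least 4-fold apart. The direction was more often kept, with leaf above root in QYZM for 206 and stem above root for 168 of the 227. Their median levels were 24.5 FPKM in leaf, 8.52 FPKM in stem and 5.55 FPKM in root of QYZM, against 19.2, 18.4 and 0.817 FPKM in leaf, stem and root of ZSZ1. The leaf medians were similar in both varieties, while in QYZM the stem median was lower and the root median higher than in ZSZ1.

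The 50 genes that met the rule in QYZM alone were spread more evenly over the conditions. In ZSZ1, 33 were short for stem over root, 27 were short for leaf over root, and 18 were short for both, while 8 failed on the leaf to stem limit alone. Leaf was above root in ZSZ1 for 47 of them and stem for 42. Genes chosen for extreme ratios in one variety were read in the other in both directions, and how far the choice itself accounts for the shortfall was not tested.

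**Figure D2:**
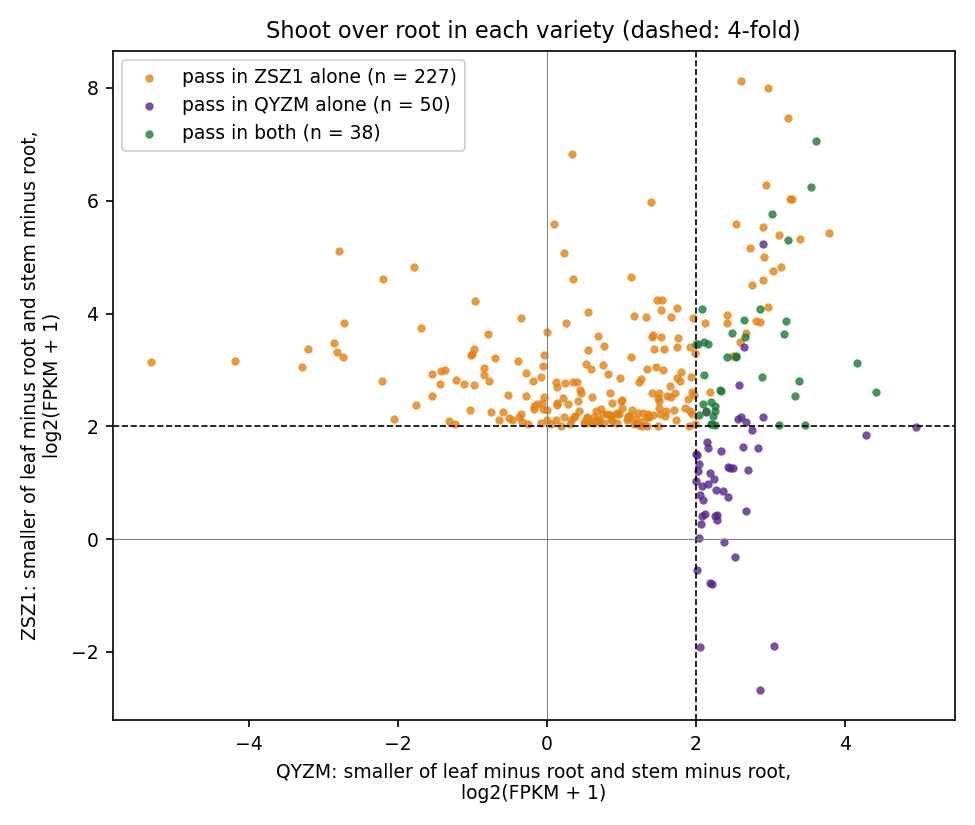
Smaller of the leaf minus root and stem minus root differences of each gene in QYZM (horizontal) and ZSZ1 (vertical), on the log2(FPKM + 1) scale, with dashed lines at 4-fold. The 38 genes that met the rule in both varieties fill the upper right corner, beside 227 that met it in ZSZ1 alone and 50 in QYZM alone. Points of a single variety inside the corner failed on the leaf to stem limit.

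Within the members, the balance between leaf and stem varied and was only loosely shared by the varieties. Leaf was above stem in 32 of the 38 genes in QYZM and in 20 in ZSZ1. The order was leaf above stem in both varieties for 16 genes and stem above leaf in both for 2. In 16 genes leaf was higher in QYZM and stem was higher in ZSZ1, and in 4 the reverse held. The leaf minus stem differences of the 38 genes correlated at Pearson r = 0.36 (Spearman 0.37) between the varieties, a description over genes that share the same 4 libraries and that the rule confined to less than 4-fold. The levels themselves correlated at Pearson r = 0.838 for leaf, 0.758 for stem and 0.798 for root on the log2(FPKM + 1) scale. Levels span a much wider range than the leaf minus stem differences, so these coefficients cannot be set against the one above.

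The leaf minus stem difference was larger in QYZM than in ZSZ1 for 30 of the 38 genes, or 78.9%, and for 75.2% of all tested genes. The median difference of the members was 0.73 in QYZM and 0.14 in ZSZ1, against -0.38 and -0.74 over all tested genes.

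The most leaf-sided members were Bnt07G011093 and Bnt09G014745. Bnt07G011093 stood at 75.9 FPKM in leaf, 22.6 FPKM in stem and 4.09 FPKM in root of QYZM, and at 105, 25.8 and 5.48 FPKM in leaf, stem and root of ZSZ1. Bnt09G014745 stood at 428 FPKM in leaf, 111 FPKM in stem and 23.3 FPKM in root of QYZM, and at 235, 78.1 and 13.7 FPKM in leaf, stem and root of ZSZ1. In both genes the order leaf, stem, root was the same in the 2 varieties.

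The most stem-sided members were the only 2 with stem above leaf in both varieties. Bnt09G013705 stood at 4.31 FPKM in leaf, 8.52 FPKM in stem and 0.257 FPKM in root of QYZM, and at 16.4, 39.0 and 0.0336 FPKM in leaf, stem and root of ZSZ1. Bnt14G019775 stood at 98.6 FPKM in leaf, 124 FPKM in stem and 4.54 FPKM in root of QYZM, and at 16.4, 44.4 and 1.01 FPKM in leaf, stem and root of ZSZ1. The first was higher in the ZSZ1 shoot and the second in the QYZM shoot.

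**Figure D3:**
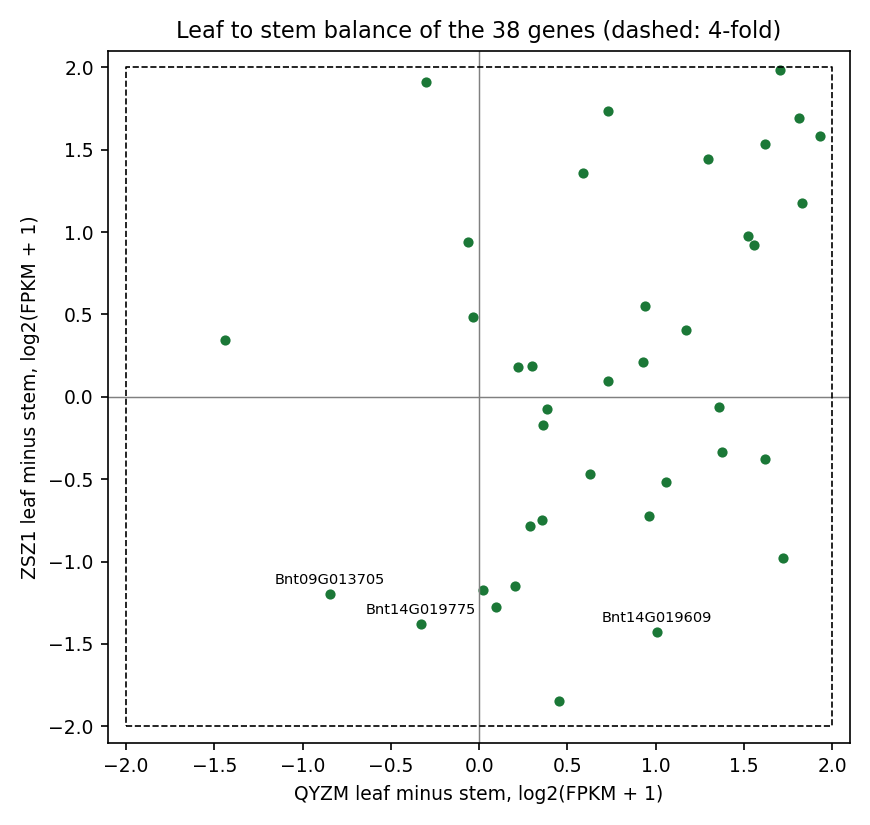
Leaf minus stem difference of each of the 38 genes in QYZM (horizontal) and ZSZ1 (vertical), on the log2(FPKM + 1) scale, with the dashed box at the 4-fold limit of the rule. A total of 16 genes lie in the upper right quadrant (leaf higher in both), 16 in the lower right (leaf higher in QYZM, stem higher in ZSZ1), 4 in the upper left and 2 in the lower left.

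The varieties were then compared, which the rule did not do, although it used the same values within each variety. A linear model with tissue and variety terms (limma) judged each gene's ZSZ1 minus QYZM difference over the 3 organs against how unevenly that difference ran from organ to organ. A call asked for a limma adjusted p below 0.05 together with a 2-fold difference, and 0 of the 38 members met it, beside 0.663% of all tested genes. At an unadjusted p below 0.05, 7 members passed, all lower in ZSZ1, beside 15.4% of all tested genes in either direction and 13.1% in that direction. That all were lower depended on the scaling: median-of-ratios scaling gave 4 higher and 6 lower members, quantile normalization 3 and 6, and a total of 1000000 per library 2 and 6. Of all 14941 tested genes, 2150, 2191 and 2178 passed under these scalings in either direction, against 2301 as deposited. The error term also holds tissue-by-variety differences, which the rule shaped by asking for the same pattern in both varieties. It bounded the leaf to stem ratio but set only a lower limit on leaf and stem over root. The members' p-values may therefore be too small or too large, which was not tested. Variety cannot be told apart from anything else that sets its 3 libraries apart, such as the plants or their handling.

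The members with the largest differences of the same sign in all 3 organs were lower in ZSZ1. Bnt02G002597 stood at 120 FPKM in leaf, 71.9 FPKM in stem and 2.42 FPKM in root of QYZM, against 19.96, 5.30 and 0.0330 FPKM in leaf, stem and root of ZSZ1. Each organ was lower in ZSZ1, and the log2 difference of -2.60 ± 0.37 (SE) was not called (limma adjusted p = 0.0629). Bnt14G019775, given above, was also lower in each organ of ZSZ1, by a log2 difference of -1.81 ± 0.29 (SE; limma adjusted p = 0.0774). Both were called when either root library was left out, which takes root out of the comparison: the differences over leaf and stem alone were -3.03 (limma adjusted p = 0.0078 and 0.00852) and -1.99 (0.0313 and 0.0355). Bnt09G013705 was also called then, at 1.89 (limma adjusted p = 0.0386 and 0.0378), against 1.17 ± 0.49 (SE; limma adjusted p = 0.338) over all 3 organs. Calls over all 14941 tested genes rose in these fits too, from 99 to 287 without QYZM root (1.92%) and 276 without ZSZ1 root (1.85%). Bnt02G002597 was called with a pseudocount of 0.1 as well (-3.52, limma adjusted p = 0.0316), where 0.863% of all tested genes were called.

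Among members higher in ZSZ1 in all 3 organs the differences were small. Bnt07G010764 stood at 32.8 FPKM in leaf, 25.4 FPKM in stem and 4.63 FPKM in root of QYZM, against 36.0, 61.2 and 7.12 FPKM in leaf, stem and root of ZSZ1 (log2 difference 0.63 ± 0.28, SE; limma adjusted p = 0.349). For Bnt07G010960 it was 0.44 ± 0.31 (SE; limma adjusted p = 0.541). Neither was called. Only 5 members were higher in ZSZ1 in all 3 organs and 8 were lower in all 3, while 17 were lower in leaf and higher in stem of ZSZ1.

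Single organs showed differing directions, although with 1 library against 1 none of this could be tested. The rule had used these same organ values, by way of the ratios within each variety. All tested genes met no such condition, so the shares below are not independent of the choice of members. In root, 31 of the 38 members were lower in ZSZ1, or 81.6%, beside 58.8% of all tested genes, and the median ZSZ1 minus QYZM difference was -0.57 beside -0.13. In stem 12 of the 38 were lower in ZSZ1, or 31.6% beside 55.4%, with a median of 0.18 beside -0.06. In leaf 25 were lower, or 65.8% beside 79.9%, with a median of -0.30 beside -0.41. Median-of-ratios scaling, which brings the median of all tested genes near 0 (0.03 in leaf, 0.02 in stem and -0.03 in root), turned the leaf median of the members to 0.25 with 15 lower, and left the stem median at 0.27 and the root median at -0.47.

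At least 2-fold apart in root were 11 members lower in ZSZ1 (28.9%, beside 12.9% of all tested genes) and 0 higher (beside 6.4%). In stem 5 members were at least 2-fold lower in ZSZ1 (13.2%, beside 7.56%) and 6 higher (15.8%, beside 4.32%). In leaf 8 were at least 2-fold lower (21.1%, beside 15.0%) and 2 higher (5.26%, beside 2.03%). The tested genes as a whole include many at levels below those the rule requires of members in leaf and stem, so the shares are not matched on level. Nor are they matched on the organ ratios that the rule set for members alone.

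At least 4-fold apart were 3 members in leaf (7.89%, beside 3.01% of all tested genes), 4 in stem (10.5%, beside 3.06%) and 3 in root (7.89%, beside 4.43%). The leaf count was 1 under median-of-ratios scaling, and the root count was 8 with a pseudocount of 0.1 and 0 with a pseudocount of 5. The members 4-fold apart as deposited are named here after their values were seen. In leaf these were Bnt02G002597, Bnt14G019775 and Bnt03G005058, the last at 68.2 FPKM in QYZM and 12.6 FPKM in ZSZ1. In stem Bnt02G002597 was lower in ZSZ1, whereas Bnt14G019609, Bnt09G013705 and Bnt01G000970 were higher, the last at 80.8 FPKM in QYZM and 392 FPKM in ZSZ1. In root Bnt04G006519, Bnt01G000970 (9.03 against 1.01 FPKM) and Bnt02G002418 (15.3 against 3.06 FPKM) were lower in ZSZ1. Bnt01G000970 thus had a higher stem and a lower root value in the cultivar, with leaf values of 111 and 109 FPKM that were nearly equal.

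**Figure D4:**
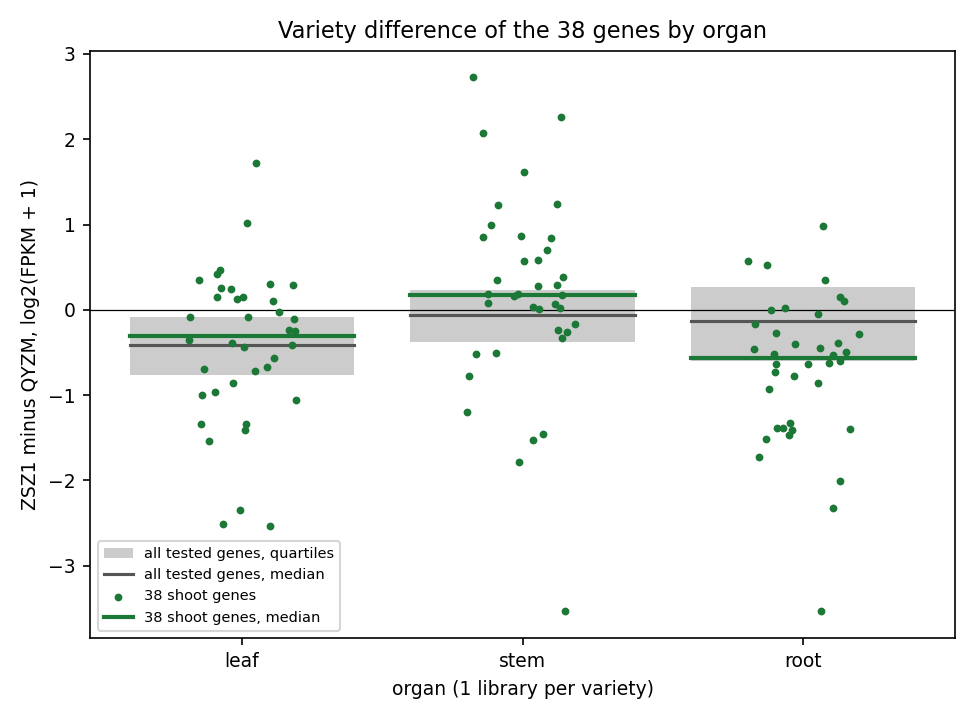
ZSZ1 minus QYZM difference of each of the 38 genes (points) in leaf, stem and root on the log2(FPKM + 1) scale, with their median (green line) beside the median and the quartiles of all tested genes (grey). The members' medians are -0.30 in leaf, 0.18 in stem and -0.57 in root, and under median-of-ratios scaling the leaf median turns to 0.25.

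The genes that most resemble the members in pattern showed where these values stand. The 413 genes enriched at least 4-fold in leaf over both other organs in both varieties had a median root difference between varieties of -0.23, and the 86 genes enriched likewise in stem had -0.74. The members' -0.57 lay between them. In stem the medians were -0.03 for leaf-enriched, 0.37 for stem-enriched and 0.18 for the shoot genes. The mirror pattern, root and stem each at least 4-fold over leaf and less than 4-fold apart, was met by 151 genes, and the pattern of leaf and root over stem by 7. The variety test called 1 of the 413 leaf-enriched genes (0.242%) and 1 of the 86 stem-enriched genes (1.16%). It called 0 of the 151 genes of root and stem, beside 0.663% of all tested genes. No difference between these lists was tested.

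The members were scattered over the identifiers. They carried 13 of the 14 numbered prefixes, with 6 under prefix 14, 4 each under 01, 03, 06 and 09, and none under 12 or under Un. Prefix 14 held 15.8% of the members and 4.12% of all genes. No 2 members had consecutive numbers. The closest were Bnt05G008280 and Bnt05G008290, whose numbers are 10 apart. Of the 76 genes listed directly beside a member under the same prefix, 55 were tested, and 12 of these (21.8%) were above root in leaf and stem of both varieties, beside 14.6% of all tested genes. The files do not say whether identifier numbers follow position on a chromosome, and no chance test was made of these counts.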

How the data were processed

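RNA of leaf, root and stem was sequenced in 2 ramie varieties, with 1 library for each organ of each variety, 6 in all. The authors deposited FPKM values (fragments per kilobase, also scaled to library size) for 20693 genes. Bowtie2 and RSEM were used, per the submitters' processing notes, which state neither version nor role. For the assembly, gene models and strand handling, the sources used here give nothing. Read depth is unknown, and values therefore carry no counting interval. Near-identical genes may share reads.

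The 38 genes were chosen by ratios of (FPKM + 1) on the values as deposited. The rule, the lists and the genes named were chosen with earlier results of these data known. Planned lists of named genes were not run, since the table pairs identifiers with no names. Genes named are the 2 at each extreme of shoot level, leaf to stem balance and variety difference, the 2 with the largest shoot to root ratio, and the 2 just inside and outside the threshold. Other genes named were picked after their values were seen. No tissue difference was tested, because the rule used it. Varieties were compared with limma 3.58.1 in R 4.3.3 (tissue and variety as terms, moderation with a trend on the mean) on log2(FPKM + 1) for the 14941 genes that reached 1 FPKM in 2 or more libraries, with Benjamini-Hochberg adjustment over all of them. A call needed a 2-fold difference and an adjusted p under 0.05. The fit was tested on simulated data, in which organ and variety effects simply added up and no members were chosen. That run does not bear on the members' p-values. Python 3.11.15 gave the other values (pandas 2.3.3, numpy 2.4.6, scipy 1.17.1) and the figures (matplotlib 3.10.9). Alternatives were pseudocounts of 0.1 and 5, other filters, scalings, folds and moderation, no tissue term, and leaving out each library.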

Additional observations from a re-analysis of the deposited data

Results flagged for a closer look

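Bnt14G019609 was picked out because its order of leaf and stem was turned round between the varieties by at least 2-fold on each side. In QYZM it stood at 196 FPKM in leaf and 96.7 FPKM in stem, a leaf minus stem difference of 1.01 on the log2(FPKM + 1) scale. In ZSZ1 it stood at 239 FPKM in leaf and 645 FPKM in stem, a difference of -1.43. The leaf values were similar and the stem values far apart. The difference between the varieties was not tested, since each organ of each variety had 1 library. It was 1 of the 38 members with such a reversal.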

How the results depend on the processing

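The number of shoot genes depended strongly on the rule's settings. It was 83 with a pseudocount of 0.1 (37 of the 38 members kept), 10 with 5 (9 kept), 59 at a total of 1000000 per library (34 kept), 224 at 2-fold and 7 at 8-fold over root, 13 with leaf and stem less than 2-fold apart, 119 with no such limit, 88 without the ZSZ1 libraries and 265 without the QYZM libraries. Median-of-ratios scaling gave 37 genes, of which only 24 were members. Genes meeting the rule in QYZM, whatever their values in ZSZ1, numbered 221 and 26 with pseudocounts of 0.1 and 5, and those meeting it in ZSZ1 564 and 88. Members called between varieties numbered 1 with a pseudocount of 0.1 and 0 to 3 with 1 library left out (3 without either root library), and 0 under each other alternative run. Of all tested genes 0.863% were called with a pseudocount of 0.1, and 1.92% and 1.85% without QYZM root and without ZSZ1 root, against 0.663% as reported. The share was 0% without either leaf library and with no filter on low values. It was 0.161% to 0.261% under the other scalings, a pseudocount of 5 and a mean of at least 5 FPKM. A count of 0 members in fits with so few calls says little about the members. Members at least 4-fold apart numbered 1 in leaf under median-of-ratios scaling, and in root 8 and 0 with pseudocounts of 0.1 and 5. Members lower in ZSZ1 leaf numbered 15 under median-of-ratios scaling and 15 under quantile normalization, both chosen after seeing the data. The total was also taken without the 100 highest genes of each library, which left out 283 genes and kept the 4 members among the highest. The members' share was then 1.36% and 1.48% in QYZM and ZSZ1 leaf, 0.752% and 1.06% in stem, and 0.084% and 0.0647% in root. Leaving genes out in this way can only raise these shares. Except where an alternative itself changes the genes or libraries admitted, the cause was not tested. The 5 variety differences given with a limma p kept their sign under 17 alternatives each, but many of these could not turn it. Other filters, moderation, no tissue term and no fold threshold leave the estimate unchanged. A gene named for the same sign in all 3 organs also keeps it when any 1 library is left out. The tissue term matches the varieties by organ, and without it 0 members were called, with 0 at an unadjusted limma p below 0.05. Of all 14941 tested genes, 0.12% were then called and 594 had an unadjusted limma p below 0.05. Without the term, organ differences enter the error, and the rule made these large for members. The count of 0 therefore says nothing about their variety differences. The missing read depth leaves the precision of low values, such as those in root, unknown.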
